A study of Mus musculus with 6 samples.

Results

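Excitatory neurons of the mouse cortex at postnatal day 5 (P5) are described here as the cells that the authors annotated as the subtype Excitatory. There were 2160 such cells of 18393 cells in all (11.7%), a total that includes 1113 cells marked as doublets. The excitatory cells made up 52.2% of the 4139 neurons. They came from 3 wild type (WT) mice of the strain FVB.129P2-Pde6b+ Tyrc-ch/AntJ and 3 *Fmr1*-KO mice of the line FVB.129P2-Pde6b+ Tyrc-ch Fmr1tm1Cgr/J, so that all 6 animals shared the Pde6b+ and Tyrc-ch background and differed by the targeted allele of *Fmr1*. Dissociated cells of the whole cortex were barcoded in droplets with InDrop, and each captured transcript was counted once through its unique molecular identifier (UMI). V2 beads were used for WT 1, *Fmr1*-KO 1 and *Fmr1*-KO 2, and V3.8 beads for WT 2, WT 3 and *Fmr1*-KO 3, so each bead version held both genotypes. Excitatory cells numbered 617, 440 and 246 in WT 1 to 3, and 268, 427 and 162 in *Fmr1*-KO 1 to 3.

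Excitatory cortical neurons release glutamate, which vesicular glutamate transporters load into synaptic vesicles. They are born from cortical progenitors through *Eomes*+ intermediate cells, and settle in layers marked by transcription factors such as *Cux1* and *Rorb* (upper layers), *Bcl11b* and *Fezf2* (layer V) and *Tbr1* and *Foxp2* (layer VI). In the first postnatal week they extend axons, build synapses and change their receptor and ion transporter genes. FMRP, the product of *Fmr1*, is an RNA-binding protein of neurons whose loss underlies fragile X syndrome.

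Promoters are shown for 3 genes that mark these cells, as the sequence in front of the transcripts counted below. Each stretch runs 5' to 3' on the coding strand from 250 bases before to 50 bases after a RefSeq start site (GRCm38.p6). Capitals mark matches to CAGATG, an E-box bound by NeuroD factors, searched on both strands (CATCTG on the printed strand). *Nrgn* encodes neurogranin, a calmodulin-binding protein of dendrites, *Neurod2* a basic helix-loop-helix factor of cortical excitatory neurons, and *Slc17a7* the vesicular glutamate transporter VGLUT1. They lie at chr9:37552696-37552995 (minus strand), chr11:98329596-98329895 (minus strand) and chr7:45163671-45163970 (plus strand).
Nrgn: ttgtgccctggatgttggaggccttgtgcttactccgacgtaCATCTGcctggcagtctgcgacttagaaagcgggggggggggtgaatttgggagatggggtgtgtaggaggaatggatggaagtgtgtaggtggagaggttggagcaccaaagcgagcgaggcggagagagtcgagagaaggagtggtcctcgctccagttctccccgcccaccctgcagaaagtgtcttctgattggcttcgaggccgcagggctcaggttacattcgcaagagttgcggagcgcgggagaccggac
Neurod2: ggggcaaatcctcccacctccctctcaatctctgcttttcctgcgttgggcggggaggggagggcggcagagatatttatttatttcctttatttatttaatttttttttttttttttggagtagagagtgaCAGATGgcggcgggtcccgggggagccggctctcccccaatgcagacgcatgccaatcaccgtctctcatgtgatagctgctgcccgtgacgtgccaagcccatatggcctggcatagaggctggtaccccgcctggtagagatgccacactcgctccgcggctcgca
Slc17a7: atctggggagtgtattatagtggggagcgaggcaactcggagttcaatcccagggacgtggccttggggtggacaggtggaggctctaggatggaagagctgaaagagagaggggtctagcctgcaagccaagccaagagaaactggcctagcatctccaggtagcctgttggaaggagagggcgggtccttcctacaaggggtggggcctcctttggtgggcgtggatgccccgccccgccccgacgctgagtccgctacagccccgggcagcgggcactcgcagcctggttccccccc
The motif was present in 17.2% of the 32851 promoters of this table. It occurred once in the stretches of *Nrgn* and *Neurod2* and did not occur in that of *Slc17a7*.

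Depth separated the mice before genotype did. The excitatory cells held 542175 to 2312682 UMIs per mouse, and the median cell held 976 to 1041.5 UMIs in the 3 mice with V2 beads but 2005 in WT 2, 8588 in WT 3 and 5889.5 in *Fmr1*-KO 3. Log levels of the genes tested correlated across genes at 0.944 to 0.976 between mice with the same beads and at 0.778 to 0.853 between mice with different beads. Barcodes were also shared between libraries of the same mouse. Of the excitatory cells, 451 (20.9%) had a barcode found again in another library of that mouse, in a cell of any subtype. The share ran from 5.60% in *Fmr1*-KO 1 to 40.2% in WT 2. In 307 of 352 such pairs within a mouse that held an excitatory cell, both cells were excitatory (87.2%). Against these 307 pairs, 8 pairs of excitatory cells shared a barcode between different mice. Values below use all cells, and the marker levels, the layer VI-like group, *Fmr1* and the test across genes are also given over 1899 cells, 1 per barcode and mouse. The Y-linked genes *Eif2s3y* and *Uty* had 0 UMIs in *Fmr1*-KO 2 and 63 to 162 and 12 to 39 UMIs in the other 5 mice.

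The markers of the annotation were checked first, as CPM, the UMIs of a gene summed over cells and scaled to the same total of 1e+06 UMIs. They describe the annotation and carry no test, because the subtypes were defined with the same genes. *Nrgn* was at 2110, 4357 and 3496 CPM in WT 1 to 3 and at 2077, 2394 and 3747 CPM in *Fmr1*-KO 1 to 3, against 174 CPM in interneurons, the next highest subtype. The 3 mice with V3.8 beads were above the 3 with V2 beads, and the genotypes overlapped. *Slc17a7* was at 160 ± 54.7 CPM (SD, n = 6 mice). The next highest subtype, the migrating neurons of the subventricular zone (SVZ), was at 4.81 CPM. That level was near the detection floor of the 65 SVZ cells, and interneurons were at 3.66 CPM.

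Other markers were not highest in these cells. *Neurod2*, at 188 to 368 CPM over the 6 mice, and *Neurod6*, at 105 to 287 CPM, were at 717 and 428 CPM in SVZ cells. *Tbr1* (70.1 to 147 CPM) and *Slc17a6* (84.4 to 140 CPM), the latter encoding the transporter VGLUT2, were at 404 and 605 CPM in Cajal-Retzius cells. Therefore *Nrgn* and *Slc17a7* were at their highest in excitatory cells, whereas *Neurod2*, *Neurod6*, *Tbr1* and *Slc17a6* were shared with immature or early-born neurons. With 1 cell per barcode and mouse, the CPM of 27 marker genes were 0.934 to 1.03 times those over all cells.

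**Figure D1:**
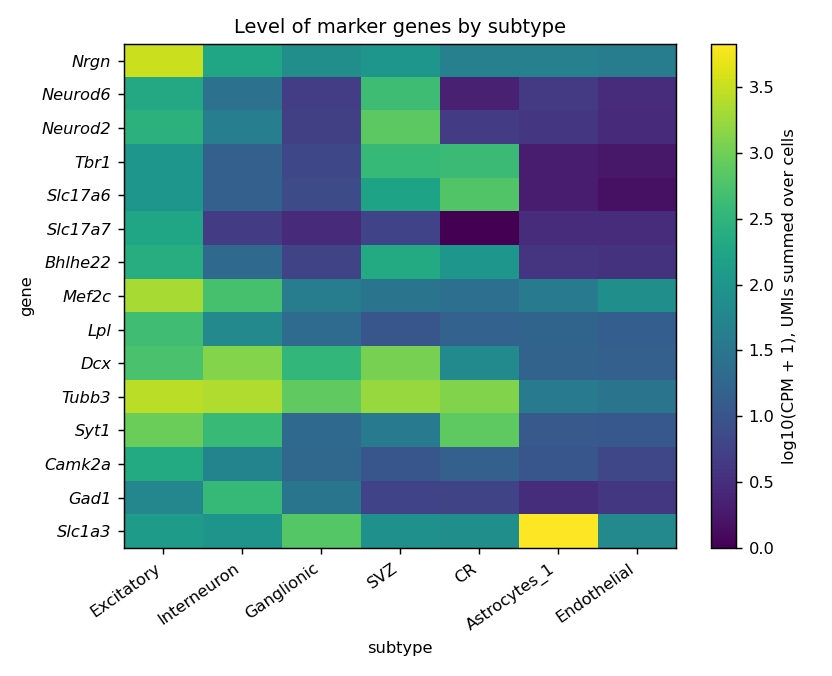
Level of 15 marker genes (rows) in excitatory cells and 6 other subtypes (columns), as log10 of CPM + 1 of UMIs summed over all cells of a subtype. Nrgn and Slc17a7 are brightest in excitatory cells, while Neurod6, Neurod2 and Tbr1 are brighter in SVZ cells and Slc1a3 is brightest in Astrocytes_1.

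To compare cells of unequal depth, each was thinned to 700 UMIs, which left out 13 excitatory cells below that depth. At least 1 UMI of the 10 excitatory identity genes was then found in 86.4% of excitatory cells (75.0% to 96.6% per mouse). The share was 66.2% in SVZ cells, 55.3% in Cajal-Retzius cells, 27.4% in interneurons, 9.44% in Astrocytes_1 and 12.2% in endothelial cells. *Nrgn* alone was found in 63.6% of excitatory cells, against 9.56% of interneurons and 4.45% of Astrocytes_1; before thinning it was found in 75.8% of excitatory cells. Median depths before thinning were 1274 UMIs in excitatory cells, 2469 in interneurons and 3755 in Astrocytes_1. A UMI of the interneuron list was found in 26.6% of excitatory cells, above the 4.27% of Astrocytes_1, and reached 34.1% to 41.5% in the mice with V2 beads but 8.66% to 17.3% in those with V3.8 beads. A UMI of the astrocyte list was found in 66.8% of excitatory cells, against 40.8% of interneurons and 57.0% of endothelial cells, and ran from 74.6% to 78.5% with V2 beads and from 38.3% to 64.2% with V3.8 beads. Markers of other cell types thus moved with the beads, and their part in the differences between mice was not tested.

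Of 4394 genes at 50 CPM or more in excitatory cells, 708 were at their highest there, 130 by more than 2-fold over the next subtype. The 20 genes with the largest such ratio ran from *Slc17a7* (36.4-fold, over SVZ cells near the detection floor) to *Rprml* (5.85-fold). Among them were the proline transporter gene *Slc6a7* (21.0-fold over interneurons), *Nrgn* (18.9-fold), the kinase-like gene *Camkv* (8.44-fold), and *Caln1* and *Arpp21* (7.46-fold and 6.92-fold). Ion channel genes were *Kcnj9* (11.7-fold), *Kcnv1*, *Kcnf1* (5.93-fold), *Cacna1i* (8.09-fold) and the calcium release channel gene *Ryr2* (7.48-fold). The neurofilament genes *Nefl* and *Nefm* followed at 12.2-fold and 7.55-fold. *Ntsr1*, the neurotensin receptor gene used to mark layer VI, and *Hs3st4* were at 9.14-fold and 6.77-fold over interneurons.

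The summed immature neuron list was lower, and the summed maturing neuron list higher, in excitatory cells than in interneurons or SVZ cells. The 12 genes of the immature neuron list encode factors such as *Dcx* and *Sox11* and cytoskeletal proteins of growing neurites. They summed to 23258 CPM in excitatory cells, 29847 in interneurons and 32799 in SVZ cells. The sum was lower in ganglionic eminence precursors (17315 CPM) and Cajal-Retzius cells (14652 CPM). By mouse it averaged 19042 CPM with V2 and 25502 CPM with V3.8 beads. *Sox11*, a transcription factor of newborn neurons, was at 631 ± 56.5 CPM (SD, n = 6) against 4328 CPM in interneurons and 6793 in SVZ cells. *Igfbpl1* was at 46.2 ± 46.5 CPM against 991 and 3726. *Sox11* and *Igfbpl1* accounted for the gap of the sum to SVZ cells, so that gap does not describe the other members. The 16 genes of the maturing neuron list, for synaptic vesicles, neurofilaments and CaM kinase II, summed to 6649 CPM, against 2694 in interneurons, 2142 in SVZ cells and 5530 in Cajal-Retzius cells. *Camk2b* was at 705 ± 128 CPM against 218 CPM in Cajal-Retzius cells, the next highest subtype. *Slc12a5*, the chloride exporter KCC2 that makes GABA inhibitory, was at 180 to 205 CPM in the mice with V3.8 beads and at 371 to 433 CPM in those with V2 beads, against 60.3 CPM in interneurons.

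The excitatory cells were then clustered among themselves, with expression centred within each bead version, and formed 13 groups, described here with no test because the same genes defined them. A group was named only where at least 3 markers of a layer list stood among its 10 leading genes, which held for group 10 alone. Group 10, called layer VI-like, had 87 cells (80 with 1 per barcode and mouse, 4.03% of all), and its leading genes included *Foxp2*, *Syt6*, *Hs3st4*, *Tle4* and *Sox5* of layer VI and *Cplx3* and *Ctgf* of the subplate. Its layer VI list summed to 3554 CPM, against 140.8 to 1104 CPM in the other groups, and its upper layer list to 287 CPM. Most of its cells, 55 of 87, came from WT 3.

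Group 3, of 264 cells with a median of 8885 UMIs, was led by *Pou3f1*, *Klhl1*, *Mef2c* and *Pou3f2* and had 2421 CPM of the upper layer list and 276 CPM of the layer VI list. *Rorb* and *Cux1* were at 453 and 345 CPM there and at 13.7 and 23.6 CPM in group 10, while *Bcl11b* was at 27.3 CPM in group 3 and at 593 CPM in group 10. Group 8, the deepest with a median of 12560.5 UMIs, was led by *Gda*, *Cpne6* and *Tcf7l2* and had 1428 CPM of the layer V list, which was higher in group 10 (2142 CPM) and group 11 (2287 CPM). *Tcf7l2* was found in 42 excitatory cells, with 92.8% of its UMIs in 10 of them. Groups 3, 8 and 10 held 32.2%, 20.8% and 10.1% of all UMIs of excitatory cells.

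Other groups carried genes of other cell types together with those of excitatory neurons. Group 7 (127 cells) was led by *Sp9*, *Gad1* and *Dlx1* and had 5343 CPM of the interneuron list beside 1842 CPM of the identity list, the lowest identity sum of the 13 groups. Group 6 (128 cells, 104 of them from WT 2) was led by *Reln*, *Ndnf* and *Lamp5* and had 11004 CPM of the astrocyte list. Group 9 (105 cells) was led by *Ccl3*, *Il1b* and other genes of microglia and endothelium, group 11 (37 cells) by the myelin genes *Mbp* and *Mag*, and group 12 (29 cells) by *Dcn*, *Heyl* and the pericyte gene *Rgs5*. These 5 groups held 426 cells, 19.7% of all, and from 5.28% (WT 3) to 45.2% (WT 2) of a mouse. *Nrgn* was at 770 CPM in group 7 and at 1794 to 4252 CPM in the other 4, against 44.9 CPM in Astrocytes_1 and 39.2 CPM in endothelial cells. Whether these barcodes held more than 1 cell was not tested.

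The remaining cells fell by bead version. Group 1 (479 cells, median 799 UMIs) and group 2 (324 cells, median 2520 UMIs) held 34.4% and 24.4% of the cells with V2 beads and 3.30% and 0.472% of those with V3.8 beads. Group 1 was led by *Ptgds*, with 289 UMIs, but 253 of these lay in 1 cell of *Fmr1*-KO 2. Its astrocyte list summed to 8551 CPM. Group 2 was led by genes such as *Lrrc74b*, *Pla2g4b* and *Crx*, with *Nrgn* at 611 CPM, and 321 of its cells belonged to the authors' neuron cluster 2. Group 5 (193 cells) held 20.5% of the cells with V3.8 beads and 1.45% of those with V2 beads. Bead version and any other difference between these sets of 3 mice cannot be told apart.

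**Figure D2:**
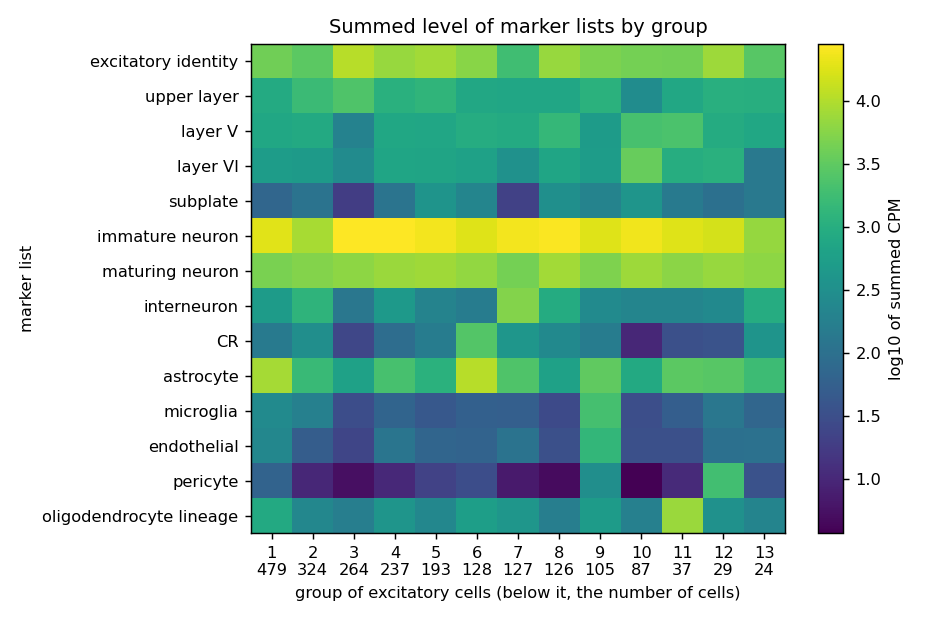
Summed level of 14 marker lists (rows) in the 13 groups of excitatory cells (columns, with the number of cells below), as log10 of CPM. The layer VI list peaks in group 10 at 3554 CPM, the upper layer list in group 3, the interneuron list in group 7 and the oligodendrocyte list in group 11.

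Shares of the groups were compared between genotypes over mice. The layer VI-like group held 1.13%, 0.682% and 22.4% of the excitatory cells of WT 1 to 3 and 1.87%, 1.87% and 5.56% of those of *Fmr1*-KO 1 to 3. WT 3 was far above the other 5 mice, and the genotypes overlapped (two-sided exact permutation test p = 1, with 0.1 the smallest p that 3 against 3 mice allow). Group 3 held 16.5% ± 12.3 (SD, n = 3) of excitatory cells in WT mice and 15.0% ± 15.3 in *Fmr1*-KO mice. Over the 13 groups the smallest exact permutation p was 0.2, or 1 after adjustment. These tests took no account of bead version.

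**Figure D3:**
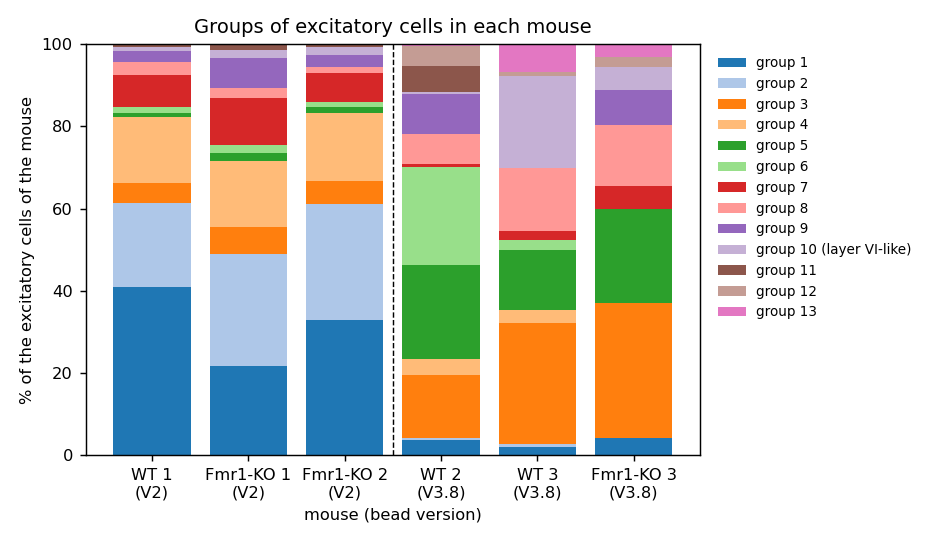
Share of each group in the excitatory cells of each mouse, in percent of the cells of the mouse (bars add to 100), with the bead version below each name and the dashed line between bead versions. Groups 1, 2 and 4 make up most of the bars with V2 beads (left), groups 3 and 5 are wide with V3.8 beads (right), and group 10 is widest in WT 3 at 22.4%.

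*Fmr1*, the targeted gene, lies at chrX:68678541-68717963 (plus strand, GRCm38). It had 70, 120 and 155 UMIs in the excitatory cells of WT 1 to 3 and 10, 30 and 29 UMIs in *Fmr1*-KO 1 to 3, that is 55.5, 69.4 and 67.0 CPM against 18.4, 33.9 and 23.3 CPM. The genotypes did not overlap, and the mean of the *Fmr1*-KO mice was 39.4% of that of WT (25.2 ± 7.91 against 64.0 ± 7.44 CPM, SD, n = 3, two-sided exact permutation p = 0.1, the smallest possible). With 1 cell per barcode and mouse the levels were 56.7, 70.3 and 67.9 CPM against 18.7, 34.7 and 23.7 CPM. A UMI of *Fmr1* was found in 280 of the 2160 excitatory cells, under the 15% required for the test across genes. In the fit without that filter its log2 fold change was -1.30 ± 0.261 (SE, edgeR quasi-likelihood FDR = 0.00117). With edgeR's own filter on low counts the fold change was -1.29 ± 0.254 and the gene was not called (edgeR FDR = 0.699). InDrop counts the 3' end of a transcript and the *Fmr1*tm1Cgr allele interrupts an earlier exon, so these UMIs do not show whether an intact transcript was made.

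The remaining *Fmr1* UMIs of the *Fmr1*-KO mice were unequally spread over the cells, a pattern that was looked at after the values were seen. In the authors' neuron cluster 2, *Fmr1* was at 53.1 CPM in *Fmr1*-KO cells (34 UMIs, 95% Poisson interval 36.8 to 74.2, counting error only) and at 53.0 CPM in WT cells (26 UMIs, 34.6 to 77.6). Cluster 2 held 24.0% of the UMIs of the *Fmr1*-KO excitatory cells and 49.3% of their *Fmr1* UMIs. Outside it, *Fmr1* was at 5.86, 8.79 and 23.5 CPM in *Fmr1*-KO 1 to 3 and at 57.7, 70.0 and 66.6 CPM in WT 1 to 3, a log2 ratio of the means of -2.35 against -1.34 over all cells. In cluster 7, which held the most UMIs, *Fmr1* was at 19.4 CPM (12.8 to 28.2) in *Fmr1*-KO and 70.1 CPM (61.2 to 80.0) in WT cells. These values pool the cells of a genotype, and *Fmr1*-KO 1 to 3 gave 16, 22 and 88 cells to cluster 7. *Fmr1*-KO 2, which lacked *Eif2s3y* UMIs in all its excitatory cells, had 26 of its 30 *Fmr1* UMIs and 17 of its 19 *Ddx3y* UMIs in cluster 2. The source of these UMIs was not tested.

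**Figure D4:**
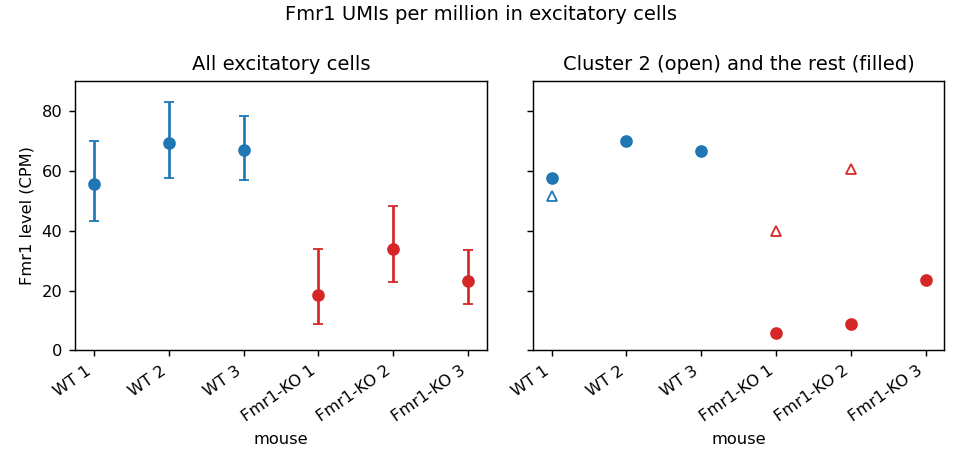
Fmr1 level in CPM for each mouse (WT blue, Fmr1-KO red), on the left over all excitatory cells with the 95% exact binomial interval, and on the right in the authors' cluster 2 (open triangles, mice with at least 100000 UMIs in it) and in the other cells (filled circles). On the right the Fmr1-KO mice are at 5.86 to 23.5 CPM outside cluster 2, while the triangles of Fmr1-KO 1 and Fmr1-KO 2 lie at 39.9 and 60.5 CPM beside 51.4 CPM in WT 1.

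The genotypes were compared for 3724 genes, those detected in 15% or more of all excitatory cells, on UMIs summed per mouse, with edgeR's quasi-likelihood test and bead version as a covariate. The same filter passed 1886 genes in the cells with V2 beads alone and 5756 in those with V3.8 beads alone. A gene counted as called if its FDR was under 0.01 and its level differed by 15% or more. No gene was called, so that the background was 0.0% of the genes tested. By edgeR, 128 genes (3.44%) had an unadjusted p under 0.05, of which 71 were higher (1.91%) and 57 lower (1.53%) in *Fmr1*-KO mice, and DESeq2 also called none. The counts called were 0 with 1 cell per barcode and mouse as well, where 116 genes had such a p. CPM of WT and *Fmr1*-KO mice did not overlap for 159 genes (4.27%). The smallest adjusted p from edgeR was 0.934. The labels do not say whether mice of a genotype were littermates.

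The 10 genes with the smallest p that were lower in *Fmr1*-KO mice within both bead versions were led by *Slc1a3*. *Slc1a3*, the astrocyte glutamate transporter GLAST (chr15:8634124-8710764), was at 237, 151 and 97.7 CPM in WT 1 to 3 and at 159, 120 and 35.3 CPM in *Fmr1*-KO 1 to 3. The genotypes overlapped across bead versions and did not within them (log2 fold change -1.19 ± 0.251, SE, edgeR adjusted p = 0.934). The rest of the astrocyte list had the same sign: all 7 of its genes that were tested were lower in *Fmr1*-KO mice, with a median log2 fold change of -0.66, which was -0.17 within V2 and -1.16 within V3.8 beads. The summed level of the list was 2643 and 2471 CPM in *Fmr1*-KO 1 and 2 against 2823 CPM in WT 1, and 812 CPM in *Fmr1*-KO 3 against 2206 and 1263 CPM in WT 2 and WT 3. Of the 7 genes, 5 were lower within both bead versions, and *Slc1a2* and *Ttyh1* were at 0.15 and 0.17 within V2 beads. Without the groups led by genes of other cell types the log2 fold change of *Slc1a3* was -0.62. *Sparcl1*, a glial secreted protein gene, was at 520, 519 and 401 CPM in WT and 373, 377 and 225 CPM in *Fmr1*-KO mice, without overlap. Its log2 fold change of -0.74 became 0.30 without the cells holding 2 or more UMIs of the astrocyte list. That setting, also used below, left out 1664 of the 2160 excitatory cells (77.0%) and kept 50 to 134 cells per mouse. *Slc1a3* was at -0.17 in it, but the list that chose the cells includes *Slc1a3* itself. *Ndrg2* and the sodium pump subunit gene *Atp1b2*, both also of astrocytes, were at -0.44 and -0.43.

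*Nap1l5*, an imprinted gene of the nucleosome assembly protein family (chr6:58905233-58907076), was at 148, 121 and 109 CPM in WT and 94.1, 62.2 and 70.7 CPM in *Fmr1*-KO mice. The groups did not overlap, and the log2 fold change was -0.82 ± 0.177 (FDR = 0.934), -0.88 within V2 and -0.67 within V3.8 beads. *Chchd10*, which encodes a protein of the mitochondrial intermembrane space, was at 92.8, 94.9 and 128 CPM against 62.7, 55.4 and 67.5 CPM, also without overlap (log2 -0.69). *Pdhb*, a subunit of pyruvate dehydrogenase, and the mitochondrial gene *Gbas* were at log2 -0.45 and -0.52, and the linker histone gene *H1f0* and the junction gene *Pkp4* at -0.58 and -0.44, each with separate groups. The 10 genes were chosen by p on these mice, so separate groups follow in part from that choice. *Nap1l5* was at -0.20 without cells holding astrocyte UMIs and at -0.30 with cells thinned to 700 UMIs, and *Chchd10* lay between -0.90 and -0.33 over 20 alternative fits. None of the 10 passed the adjusted threshold.

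Among the 10 genes higher in *Fmr1*-KO mice, *Scg2*, a secretogranin of dense-core vesicles, was at 133, 64.2 and 77.4 CPM in WT and 184, 200 and 108 CPM in *Fmr1*-KO mice. Each *Fmr1*-KO mouse was above the WT mice with the same beads (log2 0.58 ± 0.151, edgeR FDR = 1.00). *Rps27*, of the small ribosomal subunit, was at 156, 101 and 123 CPM against 190, 227 and 170 CPM, without overlap (log2 0.53). *Zfp106*, an RNA-binding zinc finger gene, did not overlap either, at 58.7 to 65.4 CPM against 70.1 to 95.6 CPM. The splicing factor gene *Rbm39* (log2 0.50), the heterochromatin reader gene *Mphosph8* (0.60), the haem lyase gene *Hccs* (0.73), the prenylation gene *Rabggta* (0.60) and *Synrg*, *Zfp65* and *Lrrc58* (0.67, 0.60 and 0.46) completed the list. These 10 genes kept their sign in all 20 alternative fits, but not their size. The fits reused these mice, and the genes were chosen by p and a sign shared by both bead versions. Kept signs and separate groups follow in part from that choice. Without cells holding astrocyte UMIs *Hccs* was at 0.19 and *Scg2* at 0.16, and without WT 1 *Zfp65* was at 0.19. *Zfp65* was also among the leading genes of the authors' cluster 2, at 607 CPM there against 50.2 CPM in the next cluster. None of the 10 passed the adjusted threshold.

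**Figure D5:**
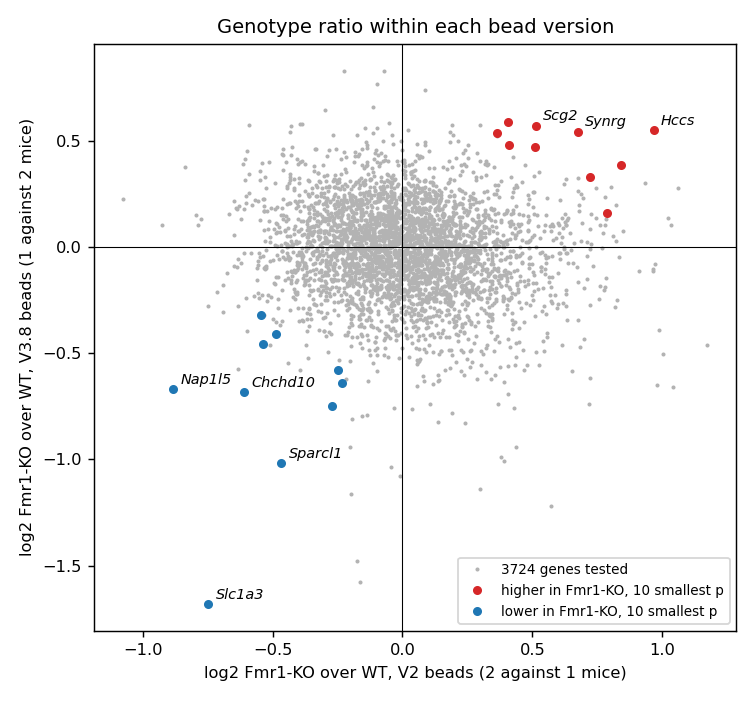
Log2 ratio of Fmr1-KO over WT mean CPM (5 CPM added) within V2 beads (x axis, 2 Fmr1-KO mice and 1 WT mouse) and within V3.8 beads (y axis, 1 Fmr1-KO mouse and 2 WT mice) for the 3724 genes tested (grey). The 10 genes with the smallest p in each direction are coloured and lie in the upper right and lower left by their choice, with Slc1a3 lowest; the grey cloud is centred near 0 on both axes.

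Lists of layer and maturation genes held no called member. Of the 10 identity genes 7 were higher and 3 lower in *Fmr1*-KO mice, with a median log2 fold change of 0.04 (range -0.08 to 0.31), beside a median of 0.00 over all genes tested. In the upper layer list 8 of 11 genes were tested and the median was 0.18, but it was -0.20 within V2 and 0.30 within V3.8 beads. *Rorb*, a nuclear receptor of layer IV, was the member at p under 0.05, at 248, 136 and 232 CPM in WT and 317, 295 and 276 CPM in *Fmr1*-KO mice (log2 0.45 ± 0.187, edgeR FDR = 1.00). *Rorb* and the netrin receptor gene *Unc5d* were the members whose groups did not overlap, 2 of 8 tested, beside 4.27% of all genes tested. In the identity, layer V and layer VI lists the groups overlapped for every gene tested. The 3 layer V genes tested had a median of -0.07, and of -0.46 within V2 and 0.13 within V3.8 beads. The 4 layer VI genes tested had a median of -0.03, and of 0.24 and -0.23 within them. The immature neuron list had a median of -0.02 over 11 genes, and of -0.18 and 0.11. Its groups did not overlap for 1 gene, *Marcksl1*.

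In the maturing neuron list 10 of 15 genes tested were lower, with a median of -0.06, and 2 had a p under 0.05. *Nefl*, the light neurofilament chain, was at 108, 224 and 117 CPM in WT and 60.9, 74.6 and 113 CPM in *Fmr1*-KO mice (log2 -0.60, overlapping), and *Thy1*, a surface protein of projection neurons, at 209, 265 and 245 CPM against 175, 203 and 145 CPM (log2 -0.46, not overlapping). *Syt1*, the calcium sensor of vesicle release, was at 893, 935 and 1062 CPM against 727, 834 and 773 CPM, not overlapping, with a log2 fold change of -0.27 ± 0.125 (edgeR FDR = 1.00). *Thy1* and *Syt1* were the 2 of 15 genes tested without overlap, beside 4.27% of all genes tested. The summed level of the list was 6057, 7084 and 7263 CPM in WT and 5880, 5594 and 6591 CPM in *Fmr1*-KO mice. In that sum each *Fmr1*-KO mouse was below the WT mice with the same beads. Over 7 layer and maturation lists the smallest exact permutation p for the summed level was 0.2 (0.7 adjusted). That test took no account of bead version. The layer VI sum, like the share of layer VI-like cells, was highest in WT 3, at 1327 CPM against 485 to 790 CPM in the other 5 mice.

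No member of the receptor and synapse lists was called. Glutamate receptor genes had a median log2 fold change of 0.08 (10 of 23 tested, 7 higher), GABA receptor and chloride transport genes -0.11 (11 of 15 tested, 5 higher), presynaptic release genes 0.05 (25 of 28 tested, 14 higher) and postsynaptic scaffold and CaM kinase genes -0.07 (14 of 23 tested, 4 higher). The median of the glutamate receptor genes was 0.22 within V2 and -0.14 within V3.8 beads and changed sign with the mouse left out (-0.15 without WT 1, 0.26 without *Fmr1*-KO 3). That of the GABA genes was 0.09 and -0.10 within the bead versions, and lay between -0.10 and 0.10 when 1 mouse was left out. The median of the presynaptic genes was -0.03 within V2 and -0.06 within V3.8 beads, below 0 in each. For the scaffold and CaM kinase genes it was -0.06 and -0.08. The scaffold gene *Shank3* had a p under 0.05, at 126, 60.2 and 42.8 CPM in WT and 95.9, 87.0 and 33.7 CPM in *Fmr1*-KO mice (log2 -0.51), as did 2 of the 20 axon guidance and adhesion genes tested, the ligand gene *Efnb3* (log2 -0.31) and *Nrcam* (log2 0.34). *Vamp2*, the vesicle SNARE gene, did not overlap between genotypes, at 585, 582 and 536 CPM against 507, 441 and 510 CPM (log2 -0.21 ± 0.120). *Gabra5*, a GABA receptor subunit gene, was also without overlap (log2 -0.27). Groups did not overlap for 2 of the 25 presynaptic genes (*Vamp2* and *Syt1*) and 1 of the 11 GABA genes, beside 4.27% of all genes tested. They overlapped for every glutamate receptor, scaffold and axon guidance gene tested.

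The ribosomal protein genes had a median log2 fold change of -0.06 (81 of 84 tested, 24 higher and 57 lower), which was -0.32 within V2 and 0.18 within V3.8 beads. Their summed level was 83837 CPM in WT 1 against 66067 and 64949 CPM in *Fmr1*-KO 1 and 2, and 46770 and 49537 CPM in WT 2 and WT 3 against 55407 CPM in *Fmr1*-KO 3, so the genotypes lay in opposite order under the bead versions. Respiratory chain genes had a median of -0.07 (76 of 89 tested, 25 higher), -0.04 and -0.09 within V2 and V3.8 beads, with 1 gene, *Ndufs5*, at p under 0.05. Splicing genes had a median of 0.04 (48 of 58 tested, 29 higher), with *Rbm39* and *Hnrnpa1* higher and *Sf3b3* lower at p under 0.05. That median was 0.03 within V2 and -0.05 within V3.8 beads. Glycolysis genes had a median of -0.11 (15 of 16 tested, 4 higher). Groups did not overlap for 1 ribosomal protein, 3 respiratory chain, 2 splicing and 1 glycolysis gene, beside 4.27% of all genes tested. Of 20 genes that the study names for neurons, a list chosen on these samples, 19 were tested, 7 were higher and the median was -0.11. It was 0.03 within V2 and -0.16 within V3.8 beads.

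Excitatory neurons were compared with interneurons of the same mice through a genotype by subtype term, for 2718 genes that passed the 15% filter in each subtype. No gene was called by edgeR (0.0%), and 63 genes (2.32%) had an unadjusted p under 0.05. The smallest p belonged to *Rabggta*, with a log2 fold change of 0.61 in excitatory neurons and -0.23 in interneurons, each from a fit of its own. *Mef2c*, an activity-dependent transcription factor gene, was at 0.04 and -0.72, and *Apoe*, an astrocyte lipid carrier gene, at -0.82 and 0.86, with a difference of -1.24 ± 0.375 (FDR = 0.999). Where the bead version could act differently in the subtypes, the difference for *Apoe* was -1.49 with an FDR of 0.0117. Interneurons numbered 59 in WT 2 and 157 to 305 in the other 5 mice.

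Without the 15% filter, 15849 genes were fitted and 14 were called (0.0883%), of which 8 belonged to a list used here. With edgeR's own filter, which kept 10329 genes, none of these or other genes was called (345 at an unadjusted p under 0.05). Several rested on few cells. *Tcf7l2* (log2 -4.49) had 460 UMIs in 42 cells, 92.8% of them in 10 cells, and 1 cell of WT 1 held 131. *Ptgds* (log2 2.46) had 253 of its 336 UMIs in 1 cell of *Fmr1*-KO 2. *Pmch*, the gene of melanin-concentrating hormone, had its 40 UMIs in 3 cells of WT 1. *Ctgf* (log2 2.12, 18 cells), *Il1b* (13 cells) and *Lamp5* (57 cells) were similarly sparse, and *Nr4a2* had 66.4% of its UMIs in 10 cells. *Gad1*, the GABA synthesis gene, was at 242, 12 and 75 UMIs in WT and 84, 38 and 7 UMIs in *Fmr1*-KO mice, and *Npy* was higher (log2 1.10), so that 2 interneuron markers lay in opposite directions. *Nefm*, the medium neurofilament chain, was more widely spread, with 124, 318 and 221 UMIs in WT and 28, 42 and 81 UMIs in *Fmr1*-KO mice over 297 cells (log2 -1.06 ± 0.203, edgeR FDR = 0.000448). *Slc1a3*, *Sparcl1*, *Apoe* and *Fmr1* were the other genes called.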

How the data were processed

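Cells of P5 cortex from 3 WT and 3 *Fmr1*-KO mice were profiled with InDrop in 17 libraries. Per the paper's methods, the authors aligned reads with TopHat2 and made UMI counts per RefSeq gene with ESAT, ignoring multimapped reads, so genes with near-identical copies are uncertain. The submitters' processing notes list TopHat2 2.0.14, bcl2fastq and mm10. The authors left out barcodes under 700 UMIs and clusters of erythrocytes or doublets, and 1113 cells were marked as doublets in the deposited annotation; no further doublet caller was run. Its size factor column is a ratio that the authors computed with scran, and it was not used in the tests. Columns matching no sample numbered 0.

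Raw counts were summed per mouse over the cells annotated as Excitatory and tested with edgeR 4.0.16 (quasi-likelihood, TMM, genotype plus bead version, Benjamini-Hochberg FDR; R 4.3.3), with 3 residual degrees of freedom, and with DESeq2 1.42.0 as an alternative. The step was tested on simulated counts that held no bead version effect, so that run does not show how it performs under such an effect. Ratios within bead version had 5 CPM added. Cells were clustered with scanpy 1.11.5 (2000 variable genes, 15 components, 20 neighbours, Leiden resolution 0.8), and permutation tests used scipy 1.17.1 (Python 3.11.15). Groups and replicate numbers came from the labels, which do not say whether mice were collected separately, so p-values measure the spread between these samples. Counting intervals cover counting error only.

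Named genes were *Fmr1*, the members of the gene lists, genes called, the 10 with the smallest p in each direction among those with the same sign within both bead versions, the 20 with the highest ratio to the next subtype at 50 CPM or more, and the 10 leading each group. A few genes that this rule names are left out of the text. The excitatory subtype and the lists were chosen with earlier results of these data known. Alternatives were the normalization, filters, bead version term, replicate block, thinning to 700 UMIs, 162 cells from each mouse, leaving out cells with astrocyte UMIs, and leaving out each mouse. Those with 1 cell per barcode and mouse, with cluster 7 alone, and without cluster 2, cluster 13 or groups led by genes of other cell types were chosen after seeing the data. Coordinates of genes are from GENCODE vM21 (GRCm38).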

Additional observations from a re-analysis of the deposited data

How the results depend on the processing

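With 3 mice against 3 and 2 bead versions, few residual degrees of freedom limit what the tests can call, and low depth with V2 beads limits genes at low levels. The number of genes called was 0 in every alternative but the fit with no filter on low counts, which called 14, of which 8 were list members, and 6 in the comparison with interneurons. Genes at an unadjusted p under 0.05 numbered 128, between 89 and 271 when 1 mouse was left out (271 without *Fmr1*-KO 3), 32 without the bead version term, 345 of 10329 with edgeR's own filter and 52 with DESeq2. In the comparison with interneurons they numbered 63, between 28 (without WT 2) and 243 (without *Fmr1*-KO 3), and 216 without WT 1.

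The log2 ratio of *Fmr1* was -1.73 with cells thinned to 700 UMIs, -0.56 without cells holding astrocyte UMIs, -2.81 in cluster 7 alone and -2.35 without cluster 2, and lay between -1.62 and -1.16 when 1 mouse was left out. These are ratios of the means of mice, unlike the pooled levels of cluster 7 above. In cluster 7 they rest on 16 and 22 cells of *Fmr1*-KO 1 and 2. Without cells holding astrocyte UMIs, a setting that left out 77.0% of the excitatory cells, *Sparcl1* reversed to 0.30 and *Atp1b2* to 0.18. *H1f0* was at 0.12 in cluster 7 alone and *Pkp4* at 0.17 after thinning. The summed layer VI list ranged from -0.40 to 0.49 when 1 mouse was left out, the latter without WT 3, and the subplate list was at 0.26 without its highest gene. The layer VI-like group held 14.9% of the cells after thinning, against 4.03%. The causes were not tested. Of 400 fits of the 20 named genes, 393 kept their direction and side of the threshold. These genes were chosen on the same mice by p and shared sign, so that count carries no support.

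Same-numbered mice of the genotypes deviated with correlations of 0.58, -0.53 and 0.76, and the first and the last of these pairs also shared their bead version, so the numbers were not taken to pair the mice. With the replicate block 0 genes were called, 111 had an unadjusted p under 0.05 by edgeR and *Ndrg2* was at 0.022, and in the comparison with interneurons 0 were called and 44 had such a p.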
